A study of Mus musculus with 8 samples.

Results

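RAW 264.7 (RAW), a macrophage-like line grown from a mouse tumour, held almost no reads of 50 genes that were counted in each library of the other macrophages studied with it. The 50 genes were chosen by a rule on the deposited counts. Each had at least 10 CPM (the count scaled to the library total) in all 4 libraries of bone marrow-derived macrophages (BMDM) and both libraries of the cells labelled hMPDM, and at most 2 counts in each of the 2 RAW libraries. They are 50 of 43346 genes in the table and 0.677% of the 7387 genes that met the floor in BMDM and hMPDM. All 50 are protein coding. The difference between RAW and the other cells was used to choose them, so it is described below and not tested.

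Polyadenylated RNA was sequenced from mouse cells that were unstimulated (0 h) or harvested 3 h after lipopolysaccharide (LPS), the bacterial cell wall component sensed by TLR4. BMDM, grown from bone marrow in medium conditioned by L929 cells, had 2 unstimulated and 2 LPS libraries. The hMPDM, unstimulated and with LPS, had 1 library each, as did RAW, a tumour line kept in DMEM with 10% serum. The labels give no genotype, strain, sex or age of the mice, no LPS dose and no meaning of hMPDM, and they do not say whether hMPDM are primary cells. Nothing states that the 2 BMDM libraries of a state came from separate cultures, and a p-value here measures no more than their spread, which may be technical. In bulk RNA, fewer cells that express a gene and less RNA of it per cell cannot be told apart.

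Macrophages take up particles through Fc, scavenger and lectin receptors, degrade the cargo with lysosomal cathepsins and show peptides to T cells on MHC class II molecules. Microbial products in the cytosol are sensed by inflammasomes, in which a sensor such as NLRP3 recruits caspase-1 through the adaptor ASC, encoded by Pycard. RAW is widely used in place of primary macrophages and is known in the field to lack ASC.

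Library totals were 7977638 to 19307312 counts in BMDM, 15318338 and 5510319 in hMPDM at rest and after LPS, and 3116434 and 4078496 in RAW. All 3 cell types held macrophage transcripts: the 18 markers summed to 19673 and 22680 CPM in RAW and to 23209 to 29006 CPM in the other libraries (here and below, CPM are scaled by TMM, which corrects for library composition, unless called plain). Single markers varied, and RAW held 995 and 1767 reads of Adgre1 (F4/80) but 11 and 4 of C1qa, a complement component. The 16 markers that met the floor had a median RAW level of 50.9% of their mean in BMDM and hMPDM. Among them C1qb was at 0.479% and Mrc1 at 3.27%, but Cd14 was at 74.1% and Tyrobp at 77.5%. Neutrophil markers summed to 23.8 and 26.1 CPM in RAW, 131 to 220 CPM in BMDM and 75.6 and 151 CPM in hMPDM. B cell markers, almost all of it Ighm, summed to 199 and 177 CPM in hMPDM, 40.2 to 56.7 CPM in BMDM and at most 1.57 CPM in RAW, while Ms4a1, Cd79a and Pax5 were at 0 in RAW. Endothelial markers, carried by Vwf, Kdr and Eng, summed to 287 to 433 CPM in BMDM and hMPDM and to 44.2 and 42.8 CPM in RAW, where Pecam1, Tek and Emcn were at 0. Erythroid and megakaryocyte markers, nearly all of it Pf4, summed to 368 to 655 CPM in BMDM and hMPDM and to 6.80 and 10.7 CPM in RAW, where Hba-a1 was at 0. Dendritic cell markers, mostly Itgax, were higher in RAW (45.8 and 62.5 CPM) than in the other libraries (9.07 to 18.1 CPM), osteoclast markers gave 159 to 400 CPM throughout, and T and NK cell and mast cell markers at most 3.71 CPM. Fibroblast markers stayed between 1.14 and 6.04 CPM in every library, with Col1a1, Col1a2 and Col3a1 at 0 in RAW. None of the 50 genes is on any of the 10 marker lists, and the part of other cells in the results below was not tested. A set of 15 genes was picked because BMDM express them and resting hMPDM nearly lack them. They were together at 1.31% of the BMDM level in unstimulated hMPDM and at 10.7% in hMPDM after LPS. The low resting value is fixed by that choice, so the 2 values cannot show that the LPS library stands apart. The source of the 10.7% was not tested. As an alternative, results that use the hMPDM LPS library are also given with that share of the BMDM LPS level subtracted where it changes them.

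The 50 genes together gave 1930 and 1934 CPM in unstimulated BMDM, 2603 and 2533 CPM in BMDM with LPS, 2162 CPM in unstimulated hMPDM and 3049 CPM in hMPDM with LPS. In RAW the same genes gave 12.3 CPM at rest and 6.42 CPM after LPS, from 47 and 30 reads. Averaged over the 6 BMDM and hMPDM libraries, single genes ranged from 16.9 CPM (Rhoh, a small GTPase-like protein of blood cells) to 231 CPM (Mmp13), with a median of 38.5 CPM against 61.4 CPM for all 7387 genes that met the floor. Their exonic lengths had a median of 4174.5 bases, against 4187 for the larger set.

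**Figure D1:**
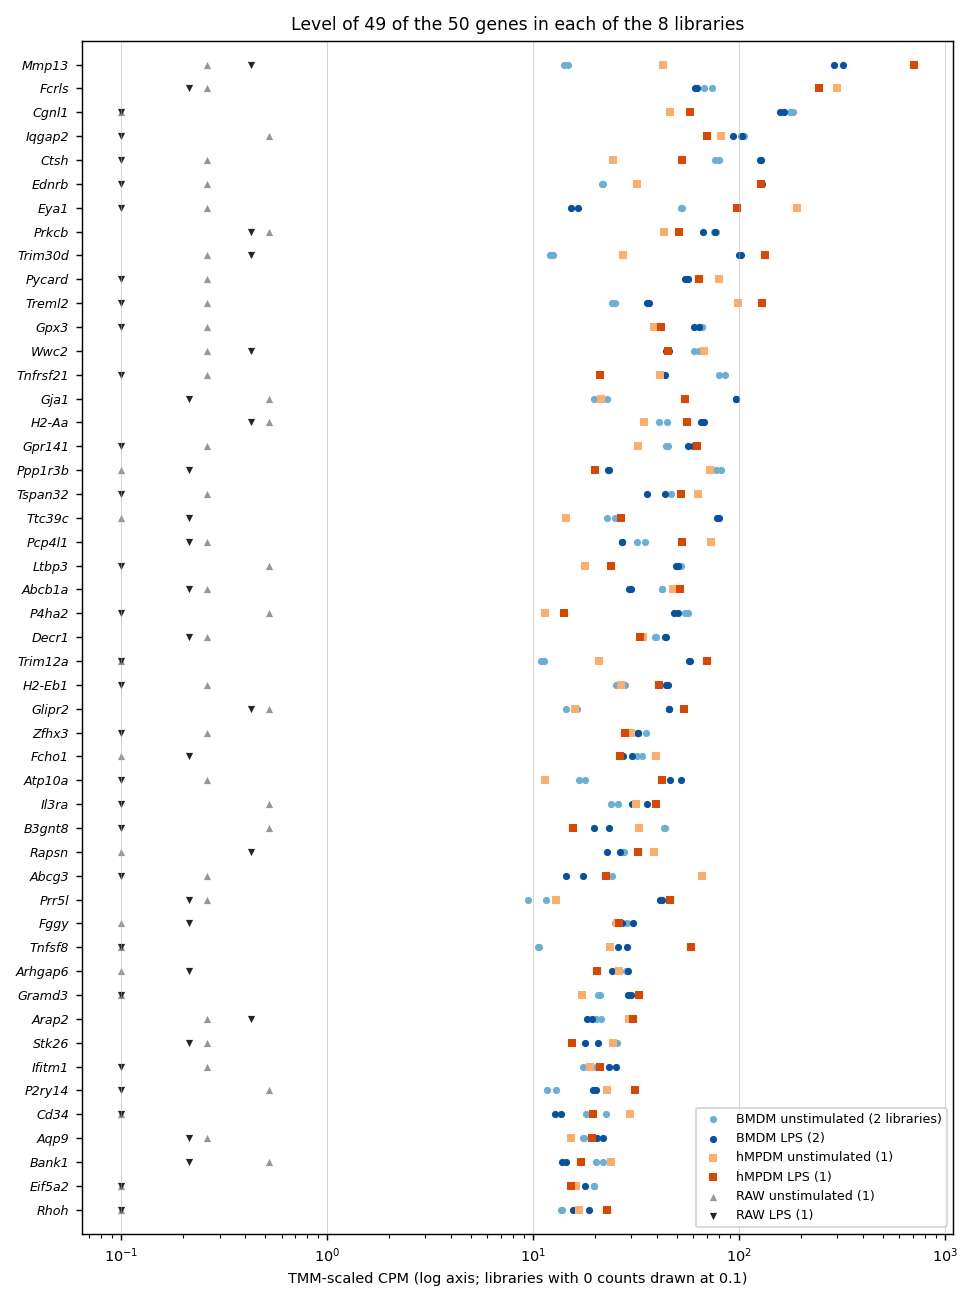
Level of 49 of the 50 genes (rows, ordered by mean level in BMDM and hMPDM) in each of the 8 libraries (points, coloured by cell type and state), in TMM-scaled CPM on a log axis, with 0 counts drawn at 0.1. The triangles of RAW lie far to the left of the circles of BMDM and squares of hMPDM in every row, and in rows such as Mmp13 the LPS libraries stand apart from the unstimulated ones.

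A library of the RAW depth would hold 31.2 reads at rest and 40.8 after LPS of a gene at 10 plain CPM, and 2 reads correspond to 0.642 and 0.490 plain CPM. Over the 2 RAW libraries, 8 of the 50 genes had 0 reads, 19 had 1, 14 had 2, 6 had 3 and 3 had 4. A count of 0 allows up to 3 counts over both libraries, or 0.353 CPM, so each of the 8 genes can only be given a lower bound. The exact 2-sided 95% interval used below for genes with reads would reach 0.434 CPM at a count of 0, which would make these bounds lower. Cgnl1 (paracingulin, a cell junction protein) was at least 371-fold lower in RAW than the mean of the other 6 libraries. The bounds of 6 other genes with no read were 108-fold for Trim12a, 74.5-fold for Tnfsf8 (CD30 ligand), 70.8-fold for Gramd3, 54.8-fold for Cd34, 49.5-fold for Eif5a2 and 47.8-fold for Rhoh. These bounds and the intervals below cover counting error only.

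Levels this low in RAW were rare among genes that met the floor. The RAW level of such a gene had a median of 90.6% of its mean in BMDM and hMPDM, and 3002 of the 7387 were above that mean. RAW was under 50% of it for 1013 genes, under 10% for 193, under 5% for 142 and under 1% for 66.

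**Figure D2:**
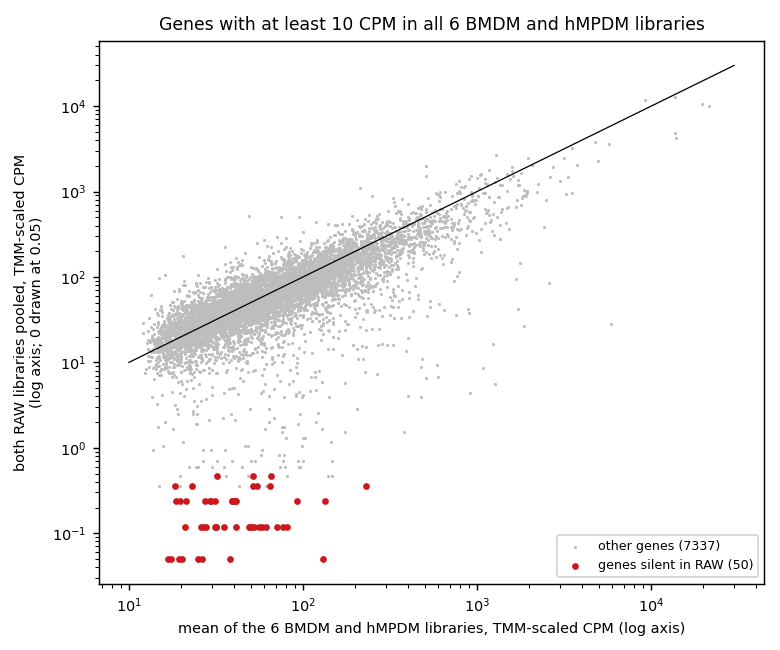
Mean level over the 6 BMDM and hMPDM libraries (x axis) against the level pooled over the 2 RAW libraries (y axis), both in TMM-scaled CPM on log axes, for the 7387 genes with at least 10 plain CPM in BMDM and hMPDM. The line marks equal levels and 0 is drawn at 0.05. The 50 chosen genes (red) lie at the foot of the plot, most of the others along the line.

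Near the limits of the rule the choice is a matter of few reads. The lowest plain CPM in BMDM or hMPDM was 10.2 for Prr5l and 10.6 for Cd34, just inside, and 9.96 for Osbp2 and 9.62 for Mpp7, just outside, both with 0 reads in RAW. H2-DMb1, which encodes a chain of the peptide loader of MHC class II, missed the floor at 9.07 plain CPM and also had 0 reads in RAW. On the RAW side, Glipr2, Prkcb and H2-Aa had 2 and 2 reads and were kept. A further 17 genes had a highest RAW count of 3 and were left out, among them F13a1 (3 and 1 reads), Fgl2 (1 and 3), H2-Ab1 (3 and 1), Folr2 (0 and 3) and Tnfrsf13b (3 and 0).

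The stretch before the transcription start was examined as a property that the rule did not use. RefSeq (GRCm38.p6, the same build as mm10) gave 250 upstream bases for 41 of the 50 genes and for 6029 of the 7387 genes that met the floor. CpG dinucleotides were fewer in front of the silent genes. The median was 7 CpG against 17, and the median ratio of observed to expected CpG was 0.440 against 0.776. A promoter with a ratio of at least 0.6 and at least 50% G and C was found for 16 of 41 (39.0%), against 71.0% of the 6029. This is a description of the set, with no test, and the table's start lies over 10 kb from the gene end in the deposited table for 2 of the 41 (Abcb1a and Zfhx3).

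**Figure D3:**
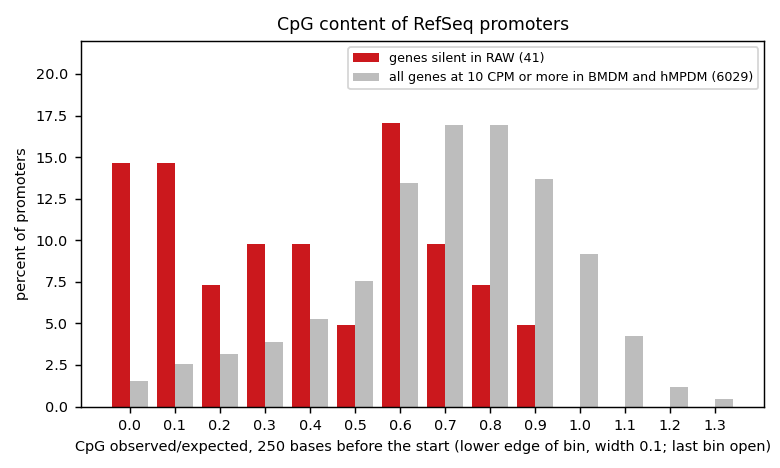
Share of promoters (y axis, percent) by ratio of observed to expected CpG in the 250 bases before the start (x axis, bins of 0.1), for the 41 silent genes with a RefSeq promoter and for 6029 genes at 10 plain CPM or more in BMDM and hMPDM. The silent genes spread over all bins up to the one that starts at 0.9, and the larger set is gathered around its median of 0.776.

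The range is seen in 3 of these promoters, printed 5′ to 3′ on the gene's strand with each CpG in capitals. Pycard (minus strand) has 2, H2-Eb1 (plus strand) none and Iqgap2 (minus strand), which encodes a scaffold protein of the actin cytoskeleton, 33.
Pycard, chr7:127993868-127994117: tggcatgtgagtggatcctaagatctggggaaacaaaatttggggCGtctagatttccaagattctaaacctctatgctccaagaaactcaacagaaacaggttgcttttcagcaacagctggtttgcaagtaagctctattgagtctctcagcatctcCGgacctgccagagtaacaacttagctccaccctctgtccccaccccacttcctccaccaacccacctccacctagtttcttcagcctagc
H2-Eb1, chr17:34305617-34305866: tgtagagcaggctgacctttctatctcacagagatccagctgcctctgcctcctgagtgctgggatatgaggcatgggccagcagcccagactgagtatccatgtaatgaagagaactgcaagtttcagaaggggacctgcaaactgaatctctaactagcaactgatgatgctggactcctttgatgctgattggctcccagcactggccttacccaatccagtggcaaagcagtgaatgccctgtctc
Iqgap2, chr13:95891923-95892172: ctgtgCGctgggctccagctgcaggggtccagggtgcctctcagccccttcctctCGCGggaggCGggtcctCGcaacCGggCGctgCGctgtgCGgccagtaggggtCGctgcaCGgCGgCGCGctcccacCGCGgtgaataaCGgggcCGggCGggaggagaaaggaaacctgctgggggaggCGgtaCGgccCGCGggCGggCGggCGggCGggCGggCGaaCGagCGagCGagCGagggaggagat
Low CpG was therefore not shared by all of the silent genes.

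Promoters of the genes with the largest LPS response are shown next, since short motifs of stimulus-dependent factors were searched on both strands. Mmp13 (plus strand) has the AP-1 motif TGANTCA and the TATA box TATAAA, and Trim30d (minus strand) has an ISRE-like motif (GAAA, any 2 bases, GAAA) of the kind bound by interferon regulatory factors, each in capitals. Both promoters hold a TATA and an ISRE-like match, and the ISRE-like match of Mmp13 and the TATA and NF-kB-like matches of Trim30d are left in lower case.
Mmp13, chr9:7272264-7272513: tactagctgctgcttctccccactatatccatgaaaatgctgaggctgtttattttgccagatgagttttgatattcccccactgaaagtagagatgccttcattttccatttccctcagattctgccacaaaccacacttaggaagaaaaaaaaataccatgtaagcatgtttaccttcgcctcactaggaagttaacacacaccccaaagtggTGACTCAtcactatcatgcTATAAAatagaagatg
Trim30d, chr7:104507850-104508099: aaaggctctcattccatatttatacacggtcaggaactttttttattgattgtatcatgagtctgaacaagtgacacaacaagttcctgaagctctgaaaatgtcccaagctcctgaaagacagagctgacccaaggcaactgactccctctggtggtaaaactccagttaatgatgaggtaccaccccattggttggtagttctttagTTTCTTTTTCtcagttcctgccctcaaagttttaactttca
Among the 41 silent genes, TGANTCA was present in 3 (7.32%, against 3.88% of the 6029), the ISRE-like motif in 2 (4.88% against 2.57%), TATAAA in 6 (14.6% against 5.46%) and the C/EBP-like TTGCNNAA in 7 (17.1% against 6.98%). The PU.1-like GAGGAAGT was present in 2 (4.88% against 2.79%), which were Pycard and Trim12a, and the NF-kB-like motif (GGG, any 5 bases, CC) in 25 (61.0% against 63.7%). A match is a run of letters and not a measured binding site.

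Of the 20 lists of macrophage functions considered, 9 held 1 or 2 of the 50 genes and the other 11 held none. Toll-like receptors and adaptors (20 genes at the floor in BMDM and hMPDM), scavenger receptors (18), C-type lectins (11) and myeloid transcription factors (19) were among the lists with none. A list with none could still be low in RAW. In the order given, genes at the floor had median RAW levels of 71.6%, 55.5%, 51.7% and 68.6% of their mean in BMDM and hMPDM. Alternative activation genes (3) had 3.27% and guanylate-binding and immunity-related GTPases (5) had 5.28%. The only chemoattractant receptor at the floor was at 5.02%. The median was 26.5% for chemokines (9), 29.1% for complement (10), 67.7% for lipid handling (22) and 71.9% for tumour suppressors (21). In each of the 9 lists other genes were counted in RAW, and they are given beside the silent one below.

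Pycard (ENSMUSG00000030793.3, chr7:127992103-127993867) encodes the inflammasome adaptor ASC. It was present at 56.3 and 56.0 CPM in unstimulated BMDM, 56.2 and 54.6 CPM in BMDM with LPS, 79.5 CPM in hMPDM and 63.9 CPM in hMPDM with LPS. RAW had 1 read at rest and none after LPS, lower than the mean of the other 6 libraries by 519-fold (95% counting interval 93.2 to 20504). Its LPS change in BMDM did not pass the test (log2 -0.02, SE 0.0598, adjusted p = 0.748), and the unstimulated and LPS libraries overlapped.
Pycard was 1 of 13 inflammasome genes at the floor, and the other 12 had a median RAW level of 51.8% of their mean in BMDM and hMPDM. RAW held 196 and 1407 reads of the sensor Nlrp3, 362 and 468 of Casp1, 245 and 272 of the DNA sensor Aim2, and 235 and 264 of Gsdmd, the pore-forming protein. In BMDM, 15 of the 19 tested genes of this list rose with LPS and 3 fell, and Pycard was not among them. Of all genes tested, 31.7% rose and 31.1% fell.

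MHC class II molecules are pairs of an alpha and a beta chain. H2-Aa (ENSMUSG00000036594.10, chr17:34282744-34287827), the alpha chain of I-A, was at 44.8 and 40.6 CPM in unstimulated BMDM, 67.4 and 65.7 CPM with LPS, and 34.7 and 56.0 CPM in hMPDM at rest and with LPS. H2-Eb1 (ENSMUSG00000060586.10, chr17:34305877-34316199), the beta chain of I-E, was at 28.0 and 25.3, 45.0 and 44.3, 26.7 and 40.8 CPM in the same order. LPS raised both in BMDM, H2-Aa by log2 0.64 (SE 0.0637, adjusted p = 4.38e-10) and H2-Eb1 by log2 0.75 (SE 0.0740, adjusted p = 3.92e-10), and the unstimulated and LPS libraries did not overlap.
RAW had 2 reads of H2-Aa in each library, and 1 and 0 reads of H2-Eb1. They were 2 of 21 antigen presentation genes at the floor. H2-Ab1, the partner chain of H2-Aa, had 3 and 1 reads in RAW and so lay just outside the rule. The invariant chain Cd74 was counted in RAW (301 and 461 reads), as were the class I genes H2-K1 (1398 and 2275) and B2m (3564 and 4258), while the costimulator Cd86 had 6 and 9. Reads of similar H2 genes may be split between copies by the counting.

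Fcrls (ENSMUSG00000015852.9, chr3:87250758-87263738), an Fc receptor-like surface protein of mouse macrophages and microglia, had the second highest level per kb of the 50 genes (57.7 CPM per kb, after Mmp13 with 86.2). It was at 73.5 and 67.4 CPM in unstimulated BMDM, 62.5 and 61.2 CPM with LPS, 299.5 CPM in hMPDM and 244 CPM in hMPDM with LPS. RAW had 1 read in each library, lower than the mean of the other 6 libraries by 572-fold (95% counting interval 158 to 4726). It was the only 1 of 7 Fc receptor genes at the floor to meet the rule. RAW held 189 and 129 reads of Fcgr1, 569 and 880 of Fcgr2b, 764 and 763 of Fcgr3 and 2044 and 2822 of the shared signalling chain Fcer1g. The Fc receptor genes at the floor other than Fcrls had a median RAW level of 30.8% of their mean in BMDM and hMPDM. The lowest of these was Fcgrt, with 28 and 14 reads (7.23%).

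Treml2 (ENSMUSG00000071068.6, chr17:48300038-48312534), a receptor of the TREM family, was at 24.3 and 25.0 CPM in unstimulated BMDM, 36.7 and 35.9 CPM with LPS, and 98.7 and 129.5 CPM in hMPDM, against 1 and 0 reads in RAW. It was 1 of 23 paired immunoglobulin-type receptors at the floor. Trem1 was nearly as low in RAW (2 and 4 reads), whereas Trem2 was plentiful (1630 and 1991).

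Among G protein-coupled receptors for purines, lipids and metabolites, 2 of 19 at the floor met the rule. P2ry14, the receptor for UDP-glucose, was at 11.7 and 13 CPM in unstimulated BMDM, 19.5 and 20.2 CPM with LPS, and 22.9 and 31.2 CPM in hMPDM. Gpr141, an orphan receptor, was at 44.3 and 45.3, 56.8 and 59.9, 32.4 and 62.8 CPM in the same order. RAW had 2 and 0 reads of P2ry14 and 1 and 0 of Gpr141, and also few of P2ry13 (4 and 1) and Ptger2 (2 and 3), but 382 and 416 of P2ry6 and 253 and 278 of P2rx7. Ednrb, the endothelin B receptor, is a G protein-coupled receptor that is not on that list and is described with the LPS response.

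Of 29 cytokine and growth factor receptors at the floor, Tnfrsf21 (death receptor 6) met the rule. It fell with LPS from 79.8 and 85.3 to 43.7 and 42.4 CPM in BMDM, and was at 41.4 and 21.2 CPM in hMPDM and at 1 and 0 reads in RAW. Il3ra, the alpha chain of the interleukin 3 receptor and not on that list, was at 25.8 and 23.9 CPM in unstimulated BMDM, 30.2 and 35.6 CPM with LPS and 31.5 and 39.5 CPM in hMPDM, and had 2 and 0 reads in RAW. RAW kept the beta chains that pair with it, with 430 and 575 reads of Csf2rb and 261 and 277 of Csf2rb2, and the receptor of the macrophage growth factor, Csf1r, with 6182 and 7520.

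Proteases and their inhibitors gave 2 of 21 genes at the floor. Ctsh (ENSMUSG00000032359.10, chr9:90054152-90076089), the lysosomal cathepsin H, was at 76.1 and 79.6 CPM in unstimulated BMDM, 127 and 126 CPM with LPS, and 24.4 and 52.8 CPM in hMPDM, against 1 and 0 reads in RAW. Other cathepsins were abundant in RAW, such as Ctsb (36304 and 49895 reads), Ctss (10400 and 12223) and Ctsl (3818 and 5442). The other member, Mmp13, is collagenase 3. RAW held 73 and 65 reads of its neighbour Mmp12, the macrophage elastase, but this was only 1.31% of its mean in BMDM and hMPDM.

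The remaining members on the lists were Gpx3, Ifitm1 and Trim30d. Gpx3, a secreted glutathione peroxidase, was at 66.0 and 65.8 CPM in unstimulated BMDM, 60.1 and 64.2 CPM with LPS, and 38.5 and 41.6 CPM in hMPDM. RAW had 1 and 0 reads of it, but 2410 and 2953 of the cellular enzyme Gpx1. Ifitm1, of the interferon-induced transmembrane proteins, was at 20.1 and 17.4, 23.3 and 25.2, 19.0 and 21.2 CPM in the same order of groups, with 1 and 0 reads in RAW against 530 and 766 of Ifitm2 and 860 and 1319 of Ifitm3. Ifitm1 and Trim30d were 2 of 38 interferon-stimulated genes at the floor, and the other 36 had a median RAW level of 18.8% of their mean in BMDM and hMPDM.

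Several of the genes with the highest levels per kb are on no list. Among them, Pcp4l1 averaged 26.1 CPM per kb, B3gnt8, a glycosyltransferase, 20.2, the tetraspanin Tspan32 17.2, Rapsn, which anchors acetylcholine receptors at the nerve-muscle synapse, 16.2, and Iqgap2 16.1. Cgnl1 averaged 16.7 CPM per kb and Gja1 (connexin 43, the gap junction protein) 16.7. Iqgap2 was at 106 and 102 CPM in unstimulated BMDM, 103 and 93.1 CPM with LPS and 82.1 and 70.0 CPM in hMPDM. Lower per kb were the transporters Abcb1a (P-glycoprotein), Abcg3, Aqp9 and Atp10a, the kinases Prkcb and Stk26, and Zfhx3, a large transcription factor, with the lowest level per kb (1.80).

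The genes are spread over the genome. Chromosome 7 held 8 of the 516 genes at the floor that lie on it (1.55%) and chromosome 8 held 5 of 413 (1.21%), against 0.677% over all chromosomes, and chromosomes 6, 12, 15 and 16 held none. Within 500 kb of each other lay 3 pairs. H2-Aa and H2-Eb1 are 18050 bases apart with no other gene at the floor between them. Trim12a and Trim30d are 154548 bases apart, and the Trim12c and Trim30a genes between them had 106 and 352 reads over the 2 RAW libraries. Aqp9, a glycerol channel, and Cgnl1 are 457827 bases apart with Polr2m between them, which had 905 reads in RAW.
The nearest gene at the floor on either side of a silent gene was mostly expressed in RAW. Over 99 such neighbours, at a median distance of 165 kb, the median RAW level was 80.7% of the mean in BMDM and hMPDM, and 11 (11.1%) were under 10%, against 2.61% of the 7387 genes at the floor. These 11 included H2-Aa and H2-Eb1, which neighbour each other and are low by the rule, and Mmp12 (1.31%) next to Mmp13, P2ry13 (2.36%) next to P2ry14, Trem1 (2.20%) next to Treml2, Cd81 (4.83%) and Lsp1 (9.25%) on the sides of Tspan32, and Cd5l (6.42%) next to Fcrls.

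The response of the silent genes to LPS was measured in BMDM, a comparison the rule did not use beyond its floor in every library. It used edgeR's quasi-likelihood test on all 12461 genes that passed the filter on low counts, which all 50 did, with Benjamini-Hochberg adjustment at 0.05. Of the 50, 22 rose (44.0%), 17 fell (34.0%) and 11 did not pass the test. All genes tested gave 31.7% up and 31.1% down, and the 7387 at the floor gave 41.8% up and 29.4% down, so the shares of the silent genes lay near this background. The median log2 change was -0.05, against -0.02 over all genes tested. Scaling to library size alone shifts this comparison by a median of -0.37 (log2) over all genes tested and turns the split into 15 up and 29 down. The shares of all genes under that scaling were not counted, so this split has no background beside it.
The test against a fold change of 2 left 10 that rose (20%, against 8.27% of all genes tested and 7.61% of those at the floor) and 2 that fell (4%, against 4.21% and 2.38%). All 12 were also called with any 1 BMDM library left out. Under scaling to library size alone, Atp10a and Tnfsf8 no longer passed that test, with adjusted p of 0.109 and 1.

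Mmp13 (ENSMUSG00000050578.9, chr9:7272514-7283333) gave the largest rise. It was at 14.8 and 14.2 CPM in unstimulated BMDM and 319.9 and 288 CPM with LPS, or 14.5 ± 0.445 and 304 ± 22.6 CPM (mean ± SD, n = 2), a change of log2 4.38 (SE 0.0626, adjusted p = 4.91e-31). In hMPDM it went from 42.8 to 704 CPM, the highest level of any of the 50 genes in any library. RAW had 1 read at rest and 2 after LPS, and the pooled ratio to the other libraries was 653-fold (95% counting interval 224 to 3168). The mean over the 6 libraries is carried by the LPS libraries, but the unstimulated libraries of both cell types were also at least 14.2 CPM.

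Both TRIM genes near each other on chromosome 7 rose. Trim30d (ENSMUSG00000057596.9, chr7:104470014-104507849), of a family of ubiquitin ligases linked to interferon, rose from 12.1 and 12.4 to 103 and 99.5 CPM in BMDM (log2 3.03, SE 0.0698, adjusted p = 1.09e-25) and stood at 27.3 and 134 CPM in hMPDM. Trim12a (ENSMUSG00000066258.9, chr7:104299894-104315466), a mouse relative of the antiviral factor TRIM5, rose from 11.4 and 10.9 to 58.0 and 57.1 CPM (log2 2.37, SE 0.0792, adjusted p = 1.63e-21) and stood at 20.8 and 70.0 CPM in hMPDM. RAW had 1 and 2 reads of Trim30d and none of Trim12a. Both have close copies beside them, so reads may be split, and RAW held 137 and 215 reads of Trim30a. Of the interferon-stimulated genes tested in BMDM, 69 of 70 rose and none fell, against 31.7% and 31.1% of all genes tested.

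Ednrb (ENSMUSG00000022122.10, chr14:103814625-103844173) rose from 21.9 and 21.6 to 129 and 126 CPM in BMDM (log2 2.55, SE 0.0596, adjusted p = 1.71e-25), and was at 31.8 and 128 CPM in hMPDM. Gja1 (ENSMUSG00000050953.9, chr10:56377300-56390419) rose from 19.8 and 22.8 to 96.7 and 96.4 CPM (log2 2.17, SE 0.0668, adjusted p = 1.95e-22), against 21.3 and 54.5 CPM in hMPDM. For both, each LPS library was above each unstimulated library of the same cell type. Smaller rises past 2-fold were those of Prr5l, an mTORC2 component (log2 2.00), Ttc39c (log2 1.72), Glipr2 (log2 1.57), the phospholipid flippase Atp10a (log2 1.49) and Tnfsf8 (log2 1.35). The list of proteases and inhibitors moved both ways in BMDM, with 16 of 32 tested up, Mmp13 and Ctsh among them, and 7 down. All genes tested gave 31.7% up and 31.1% down.

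A pair of regulators fell past 2-fold. Ppp1r3b (ENSMUSG00000046794.8, chr8:35375741-35388124), which brings protein phosphatase 1 to glycogen, fell from 77.3 and 81.3 to 23.1 and 23.3 CPM (log2 -1.77, SE 0.0701, adjusted p = 1.28e-19), and was at 71.9 and 20.1 CPM in hMPDM. Eya1 (ENSMUSG00000025932.10, chr1:14168954-14310235), a transcriptional coactivator and phosphatase, fell from 52.7 and 52.0 to 15.3 and 16.4 CPM (log2 -1.71, SE 0.0804, adjusted p = 1.03e-17) and was at 192 and 97.5 CPM in hMPDM. Tnfrsf21 (log2 -0.95, adjusted p = 3.20e-14) and B3gnt8 (log2 -0.98, adjusted p = 5.73e-12) were called lower but not past 2-fold.
Many other changes were small. Calls of 10 genes, among them Aqp9, Cgnl1, Decr1, Eif5a2, Fcrls, P4ha2, Rhoh, Stk26 and Tspan32, were lost without 1 BMDM library or another, and the largest of these changes was log2 0.40 in size.

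In hMPDM the LPS response is a ratio of 1 library to 1 and has no test. Of the 50 genes, 10 were at least 2-fold higher with LPS (20%, against 11.2% of all genes tested and 9.02% of those at the floor) and 3 at least 2-fold lower (6%, against 9.76% and 3.29%). Of the 10 genes that rose past 2-fold in BMDM, 9 were at least 2-fold higher in hMPDM, the exception being Ttc39c with log2 0.88. Ppp1r3b was lower by a similar amount in both (log2 -1.83 in hMPDM), and Eya1 had log2 -0.98.

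**Figure D4:**
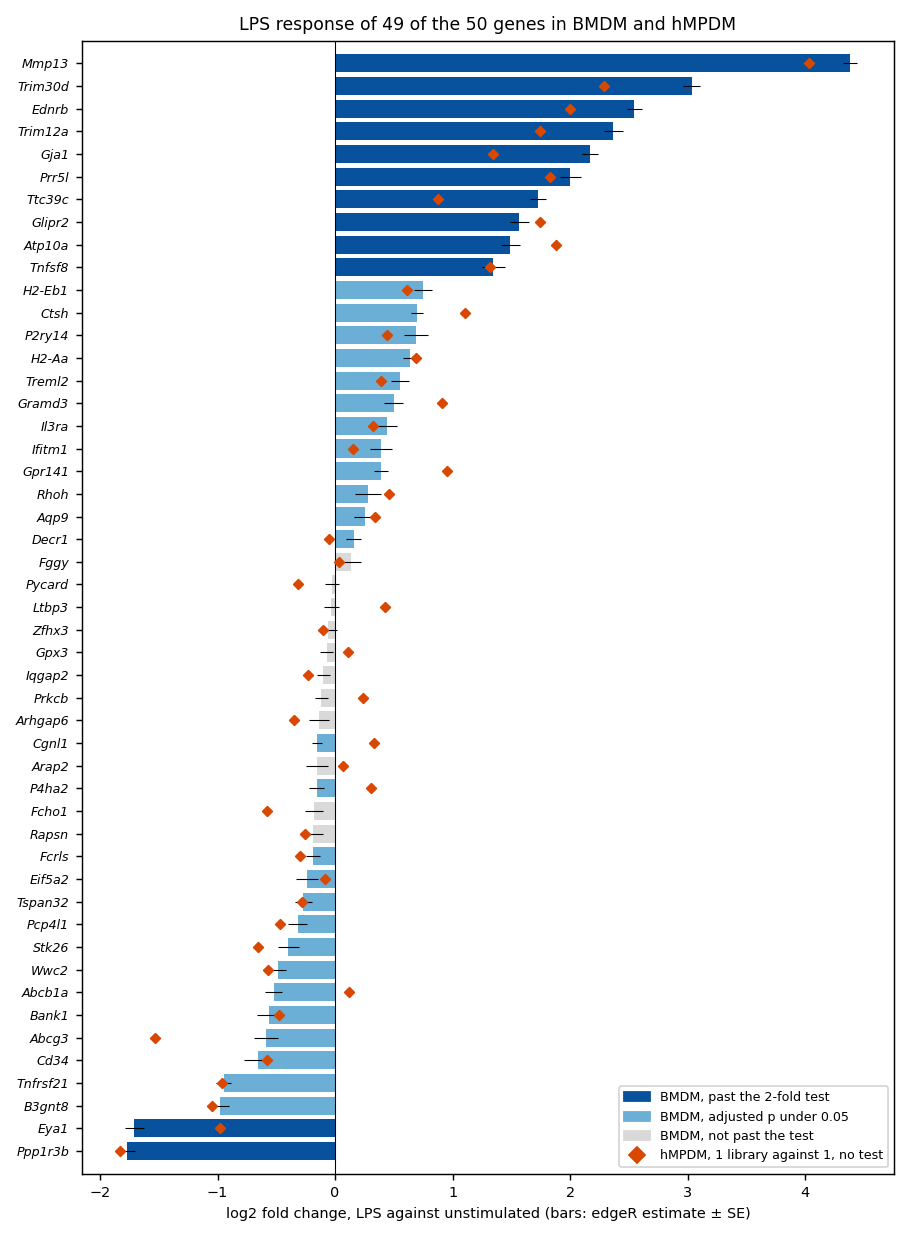
Log2 change with LPS (x axis) for 49 of the 50 genes (rows): bars are the edgeR estimate ± SE in BMDM (2 against 2 libraries), dark where past the 2-fold test, and diamonds are the untested ratio in hMPDM (1 against 1 library). Mmp13 is at the top with 4.38 in BMDM and 4.04 in hMPDM, and Ppp1r3b at the bottom with -1.77 and -1.83.

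The cells labelled hMPDM were then set against BMDM for the same genes, with each single hMPDM library assumed to have the spread of the BMDM pairs. This comparison shares the unstimulated BMDM libraries with the LPS comparison. At rest 18 of 50 were higher in hMPDM (36.0%, against 19.0% of all genes tested and 23.6% of those at the floor), 17 lower (34.0%, against 19.2% and 19.8%) and 15 did not pass. Past 2-fold, 5 were higher (10.0%, against 1.32% and 0.921%) and 4 lower (8.00%, against 2.76% and 0.948%), and these 9 were also called with any 1 BMDM library left out.
After LPS, 16 were higher in hMPDM (32.0%, against 12.5% and 17.1%), 13 lower (26.0%, against 12.5% and 13.7%) and 21 did not pass. Past 2-fold, 4 were higher (8.00%, against 0.722% and 0.609%) and 3 lower (6%, against 1.00% and 0.460%). The median log2 difference was 0.02 at rest and -0.05 after LPS, so the genes moved to both sides and not one way. B cell markers (Ighm) were higher in hMPDM than in BMDM, and neutrophil markers lower, both at rest and after LPS. Their part in these differences was not tested.

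Fcrls was the most raised in hMPDM at rest. Its 299.5 CPM there stood against 73.5 and 67.4 CPM in BMDM (log2 2.09, SE 0.0505, adjusted p = 1.37e-23), and after LPS the difference was log2 1.98 (SE 0.0723, adjusted p = 7.45e-19). Treml2 was higher by log2 2.00 at rest (SE 0.0662, adjusted p = 1.52e-20) and by 1.84 after LPS. Eya1 was higher by log2 1.88 at rest (SE 0.0530, adjusted p = 4.03e-22) and by 2.60 after LPS, the largest difference of the 50 in that state. All 3 genes passed the test against 2-fold in both states.
Mmp13 was higher by log2 1.56 at rest and 1.22 after LPS, and the second of these did not pass the 2-fold test without LPS replicate 2 of BMDM (adjusted p = 0.0891) or with a coefficient of variation of 10% (adjusted p = 0.882). Abcg3, a transporter of the ABC family with close copies in the mouse genome, was at 66.0 CPM in resting hMPDM against 24.3 and 22.3 CPM in BMDM (log2 1.51, SE 0.0769, adjusted p = 4.42e-16). With LPS it was at 22.7 CPM against 17.4 and 14.4 CPM.

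P4ha2 (ENSMUSG00000018906.10, chr11:54100095-54131665), a prolyl hydroxylase of collagen, was the most lowered in hMPDM, with 11.4 CPM at rest against 56.7 and 54.4 CPM in BMDM (log2 -2.28, SE 0.0958, adjusted p = 4.41e-18). After LPS it was at 14.2 CPM against 48.5 and 50.5 CPM (log2 -1.81). Cgnl1 (ENSMUSG00000032232.10, chr9:71626509-71771602) was at 46.0 CPM in resting hMPDM against 176 and 182 CPM in BMDM (log2 -1.96, SE 0.0617, adjusted p = 4.23e-21), and at 58.0 CPM against 165 and 158 CPM after LPS (log2 -1.47). No hMPDM library reached the lowest BMDM library for either gene.
Ctsh was lower in hMPDM by log2 -1.67 at rest (SE 0.0760, adjusted p = 2.76e-17). After LPS its difference of -1.26 did not pass the 2-fold test (adjusted p = 0.076), and it did with the share of the BMDM level subtracted (adjusted p = 0.00022). Ltbp3, which binds latent TGF-beta, was at 17.8 CPM against 52.5 and 50.4 CPM at rest (log2 -1.53, SE 0.0869, adjusted p = 5.70e-15). Ttc39c passed the 2-fold test only after LPS, with 26.6 CPM in hMPDM against 80.1 and 78.3 CPM in BMDM (log2 -1.57, SE 0.121, adjusted p = 1.24e-11). With a coefficient of variation of 10%, Ttc39c and Cgnl1 did not pass the 2-fold test after LPS (adjusted p = 0.0784 and 0.119). Pycard was higher in hMPDM at rest by log2 0.50 (adjusted p = 7.34e-08), with no call after LPS (log2 0.21, adjusted p = 0.122). With DESeq2 the resting difference of Pycard (log2 0.51) was not called. H2-Eb1 had differences of log2 0.01 and -0.13 and was not called in either state.

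**Figure D5:**
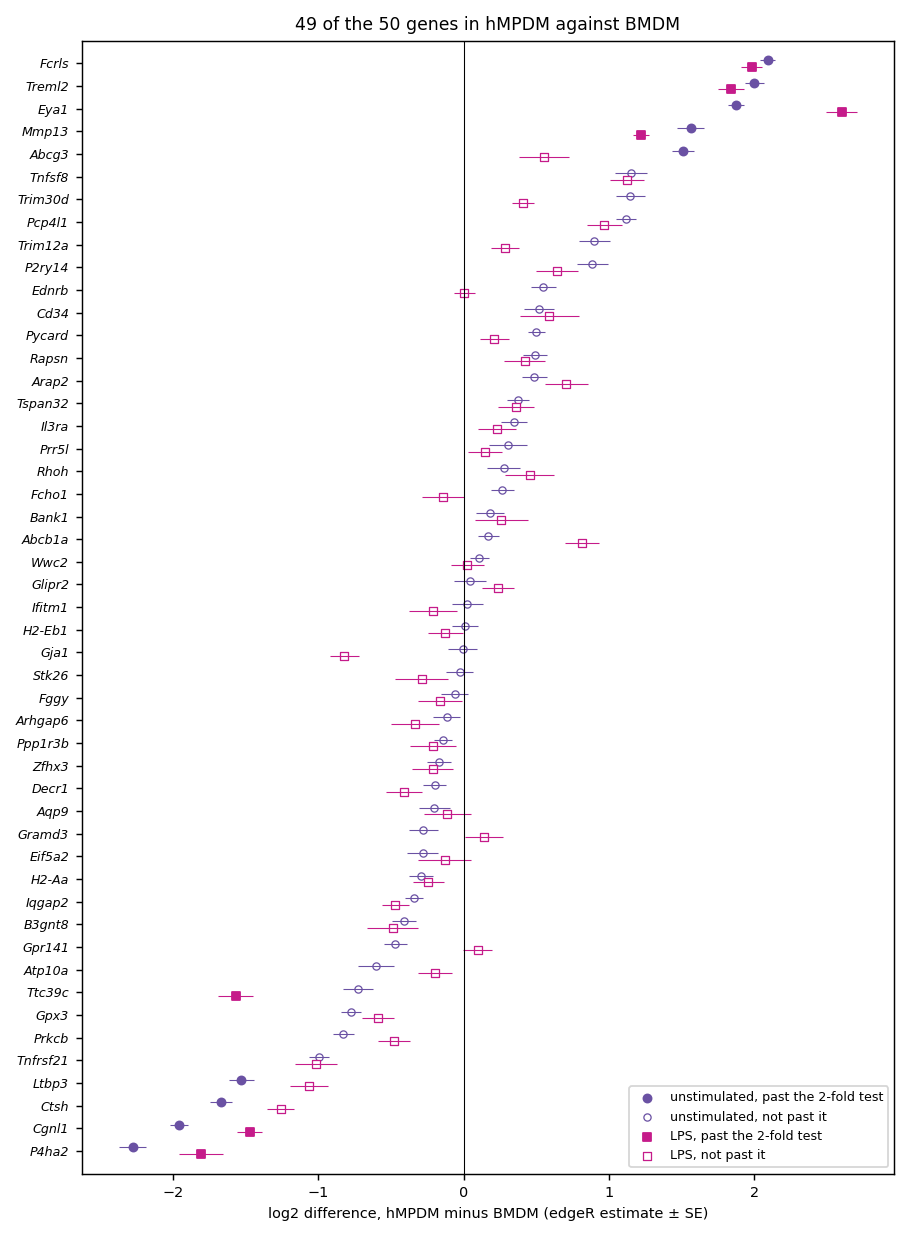
Log2 difference of hMPDM from BMDM (x axis, edgeR estimate ± SE) for 49 of the 50 genes (rows), at rest (circles) and after LPS (squares), filled where past the 2-fold test. Both symbols are filled for Fcrls, Treml2, Eya1 and Mmp13 at the top and for Cgnl1 and P4ha2 at the bottom.

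The LPS response itself was tested for a difference between hMPDM and BMDM. It was larger (more positive) in hMPDM for 5 of 50 (10.0%, against 3.96% of all genes tested and 5.71% of those at the floor), at edgeR's adjusted p of 0.05. It was smaller (more negative) for 6 (12.0%, against 3.89% and 5.31%). None of the 50 passed the same test against a 2-fold difference by edgeR. Of all genes tested 0.0642% were larger and 0.185% smaller by that test, and of those at the floor 0.0406% and 0.135%. For a difference of any size, 20 of the 50 had an unadjusted edgeR p under 0.05. The share of all genes at that limit was not counted, so this number has no background beside it. Called smaller in hMPDM were Abcg3 (log2 -0.95, a larger fall), Ttc39c (-0.84), Gja1 (-0.82), Trim30d (-0.74), Trim12a (-0.62) and Ednrb (-0.54). For Trim30d, Trim12a and Ednrb the resting level was higher in hMPDM, while the LPS levels were closer together, such as 128 CPM against 129 and 126 CPM for Ednrb. Gja1 began level (21.3 CPM against 19.8 and 22.8 CPM) and ended at 54.5 CPM against 96.7 and 96.4 CPM.
Called larger were Eya1 (log2 0.73, a smaller fall), Abcb1a (0.64), Gpr141 (0.57), Cgnl1 (0.49) and Ctsh (0.41). Abcb1a was lower with LPS in BMDM (42.2 and 42.2 to 29.9 and 29.1 CPM) and at 47.5 and 51.7 CPM in hMPDM. Cgnl1 and Ctsh were no longer called when the share of the BMDM level given above was subtracted from the hMPDM LPS library (log2 0.13 and 0.14, adjusted p = 0.654 and 0.645). All 11 calls rest on the assumed spread of the single hMPDM libraries, and none was made with a coefficient of variation of 10% or with DESeq2.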

How the data were processed

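Polyadenylated RNA was measured in 8 mouse macrophage libraries, grouped by the sample labels. The authors deposited whole-number read counts of each gene and library, not normalized. Per the submitters' processing notes, featureCounts (whose layout the header has), STAR, cutadapt, bedtools and SAMtools were used with the mm10 build, without versions. The library kit keeps strand, per the labels' protocols, but neither the strand setting of the counting nor the treatment of reads with several positions is stated. Columns were used where their name matched 1 sample, and 2 other value columns were not used. Of 43346 identifiers, 42462 matched a symbol and 884 did not. Coordinates are those of the table, counted from 1.

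The members and lists were chosen with earlier results of these data known. Counts were fitted in edgeR 4.0.16 (R 4.3.3) with 1 coefficient per group over all 8 libraries, filterByExpr and TMM. The 2 residual degrees of freedom come from the BMDM pairs, which differed by more than counting noise (chi-square per degree of freedom 1.61 at rest and 1.66 after LPS). An SE is the log2 value's size divided by the square root of the F statistic, which can fall below counting error. A change past 2-fold passed glmTreat at a fold of 2. Adjusted p-values are Benjamini-Hochberg values over the 12461 genes tested, called at 0.05. The hMPDM response is a log2 ratio with a prior count of 2. Ratios to RAW with 1 or more reads have exact 95% intervals. Promoter sequences are RefSeq's. The fit was tested on simulated counts. These gave every library the same spread, hMPDM included, so they cannot check the spread assumed for hMPDM.

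Named genes are the 20 highest per kb, those past 2-fold in each comparison (up to 10 each way with LPS and 8 each way between cell types), up to 5 each way in the difference of responses, those on a list or within 500 kb of each other, and those nearest the thresholds. Others were chosen after their values were seen. Alternatives covered scaling, filter, test (DESeq2 1.42.0), assumed spread, replicate block, libraries left out, the subtracted share and the rule's limits. The values of 1 of the 50 genes are not reported here by name, and the plots by gene leave it out, while all counts include it.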

Additional observations from a re-analysis of the deposited data

Results flagged for a closer look

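For 11 of the 50 genes the response to 3 h LPS differed between hMPDM and BMDM by a test of the difference itself (edgeR's quasi-likelihood test, adjusted p under 0.05). Of all genes tested, 3.96% had a more positive and 3.89% a more negative response in hMPDM. The values are log2 differences, hMPDM response minus BMDM response, with 1 hMPDM library per state. The response was more negative in hMPDM for Abcg3 (-0.95), Ttc39c (-0.84), Gja1 (-0.82), Trim30d (-0.74), Trim12a (-0.62) and Ednrb (-0.54). For Abcg3 this was a larger fall, log2 -1.53 in hMPDM (untested ratio) against -0.59 in BMDM. The response was more positive for Eya1 (0.73), Abcb1a (0.64), Gpr141 (0.57), Cgnl1 (0.49) and Ctsh (0.41). For Eya1 this was a smaller fall, log2 -0.98 in hMPDM against -1.71 in BMDM. Abcb1a had log2 0.12 in hMPDM against -0.52 in BMDM. With the share of the BMDM level subtracted from the hMPDM LPS library, Cgnl1 (adjusted p = 0.654) and Ctsh (adjusted p = 0.645) were not called by edgeR. None of the 11 was called with a coefficient of variation of 10% or with DESeq2.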

How the results depend on the processing

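The spread between libraries rests on 2 BMDM pairs and none in hMPDM or RAW, and the RAW libraries are the shallowest, so single reads decide which genes meet the rule. The rule gave 94 genes with a floor of 5 CPM, 22 with 20 CPM, 8 with a RAW ceiling of 0 reads and 85 with 5 reads, by construction of each limit. With TMM-scaled CPM it gave 54 genes, 49 of them shared. Scaling to library size alone turned 17 falls in BMDM into 29, 2 falls past 2-fold into 4 and 3 lower hMPDM ratios into 6, and reversed the changes of Decr1 (-0.21), Fggy (-0.23), Rhoh (-0.086) and Aqp9 (-0.11), by its shift of all genes. With a coefficient of variation of 10%, falls in BMDM were 9, genes lower in hMPDM at rest 10, and genes higher and lower after LPS 9 and 7, with 1 lower past 2-fold. The differences of responses were then 0 larger and 0 smaller. With DESeq2, falls in BMDM were 6, genes higher and lower in hMPDM 10 and 9 at rest and 7 and 7 after LPS, and differences of responses 0 and 0. The share subtracted left 3 larger responses in hMPDM. The cause of the shifts under DESeq2 was not tested.

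Replicate numbers were shared in BMDM only, and same-numbered libraries did not deviate together (correlation -0.03 over 2 pairs). With 2 libraries a state, this cannot show whether the numbers pair the samples. With the replicate block, 21 genes rose and 18 fell in BMDM, 18 were higher and 15 lower in hMPDM at rest, 12 and 13 after LPS, and 4 and 7 responses differed. The block also ended the 2-fold call of Mmp13 after LPS (adjusted p = 0.184). Leaving out 1 BMDM library gave 19 to 21 rises and 12 to 18 falls in BMDM, 18 to 21 higher and 14 to 18 lower in hMPDM at rest, 11 to 16 higher and 13 lower after LPS, and 4 to 6 larger and 6 to 7 smaller responses. This ended the calls at rest of 5 genes (Decr1, Eif5a2, Fcho1, Gramd3 and H2-Aa) and after LPS of 7 (Abcg3, B3gnt8, Cd34, Rapsn, Rhoh, Trim12a and Tspan32), and the call of Ctsh in the difference of responses.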
